A study of Homo sapiens with 6 samples.

Results

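The genes described here are 42 genes whose products place, remove, read or edit chemical marks on RNA, among them NAT10, the target of the siRNA in this experiment. They were chosen by gene symbol from the count table, with at least 10 counts required in 3 or more of the 6 libraries. All 42 met this limit, out of 62754 genes in the table. By the mark they act on they fall into 4 genes of acetylcytidine (ac4C) and THUMP domains, 8 writers, 2 erasers and 8 readers of methyladenosine (m6A), 6 methylcytosine (m5C) genes, 12 tRNA genes and 2 editing enzymes.

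RNA was sequenced from HK-2, an established epithelial line from the proximal tubule of the human kidney, in 3 libraries per group. Cells of both groups received Cisplatin, a platinum drug that crosslinks DNA. The control group (CP+siNC) carried a non-targeting siRNA and the silenced group (CP+siNAT10) an siRNA directed at NAT10. The labels give neither dose nor time, the Methods select 20 μM for 24 hours for these cells, and no group without Cisplatin was analysed here. Total counts were 19321665, 21602988 and 19464027 in CP+siNC and 20793709, 21531774 and 25192736 in CP+siNAT10, and since nothing says that the replicates came from separate cultures, p-values measure only the spread between these libraries.

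The cell type label was compared with marker genes. The epithelial keratin KRT8 stood at 1455 ± 21.1 CPM (CPM, the count scaled by the TMM library size, mean ± SD, n = 3) in CP+siNC and 1450.0 ± 18.7 CPM in CP+siNAT10. Of the other epithelial markers KRT18 fell (log2 fold change -0.36) and EPCAM rose (0.31), both without overlap of the groups, and KRT8 and KRT19 did not pass. CDH1, the epithelial cadherin, stayed below the level of 3 counts in every library. Of 12 markers of the differentiated proximal tubule, 4 had enough counts to be tested and 9 averaged under 1 CPM, with the uptake receptor gene LRP2 and the organic anion transporter genes SLC22A6 and SLC22A8 below 3 counts in each library. Their summed level was 46.1, 46.6 and 44.5 CPM in CP+siNC and 43.7, 39.8 and 43.0 CPM in CP+siNAT10, most of it from GGT1, the brush border gamma-glutamyltransferase. Within the sum GGT1 fell (log2 fold change -0.28) and the glucose transporter gene SLC5A2 rose (0.31), both without overlap, and the other tested markers did not pass. The label thus rests on keratins, GGT1 and SLC5A2, and most other genes that define the tubule were near 0. Among 7 markers of other cell types, COL1A1 and PTPRC passed the test as higher in CP+siNAT10, and CDH5 and UMOD were below 3 counts in each library. PDGFRB had too few counts to be tested and was lower without overlap, at means of 0.352 CPM in CP+siNC and 0.133 CPM in CP+siNAT10. The sum of these 7 was 11.3, 12.4 and 10.9 CPM in CP+siNC and 14.0, 17.4 and 13.9 CPM in CP+siNAT10, nearly all from the collagen gene COL1A1, and its part in the results was not tested.

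RNA bases are modified after transcription by enzymes called writers, some marks are removed by erasers, and reader proteins bind marked RNA and act on its splicing, stability or translation. NAT10 is the writer of ac4C on ribosomal RNA, tRNA and some messenger RNA. Marks on tRNA shape its folding, stability and codon reading, and A-to-I editing turns adenosine into inosine in double-stranded RNA.

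Across the 42 genes, more rose than fell in CP+siNAT10. With edgeR's quasi-likelihood test after Benjamini-Hochberg correction over 19874 genes, 20 were higher and 11 lower at an adjusted p under 0.05, which is 47.6% and 26.2% of the 42. Of all genes tested 21.8% were higher and 22.3% lower. The share called grows with the level, and 39 of the 42 averaged at least 5 CPM, a level at which 29.1% of genes were higher and 29% lower. The median log2 fold change was 0.11 over the 42 and 0.01 over all genes tested. Most changes were small. A change over 1.5-fold was called for 3 genes, NAT10 downward and FTO and NSUN6 upward, which is 7.14% of the 42. That limit was passed by 9.55% of all genes tested and 6.58% of those averaging at least 5 CPM. No member passed 2-fold, where 2.33% of all genes tested and 1.05% of those averaging at least 5 CPM did. All CP+siNAT10 libraries lay above all CP+siNC libraries for 21 genes and below them for 12, or 50% and 28.6%. Of all genes tested 25.7% and 25.7% were so separated, and of those averaging at least 5 CPM 32.3% and 31.4%. Leaving out CP+siNAT10 library 2 left 7 genes lower, where the genes lower in the whole table went from 4440 to 3961. Leaving out CP+siNC library 3 brought 5 genes past 1.5-fold, the additional genes being TRDMT1 and CTU1. The log2 fold change of NSUN6 ran from 0.524 to 0.724 over the alternatives, so it did not pass 1.5-fold in each.

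**Figure D1:**
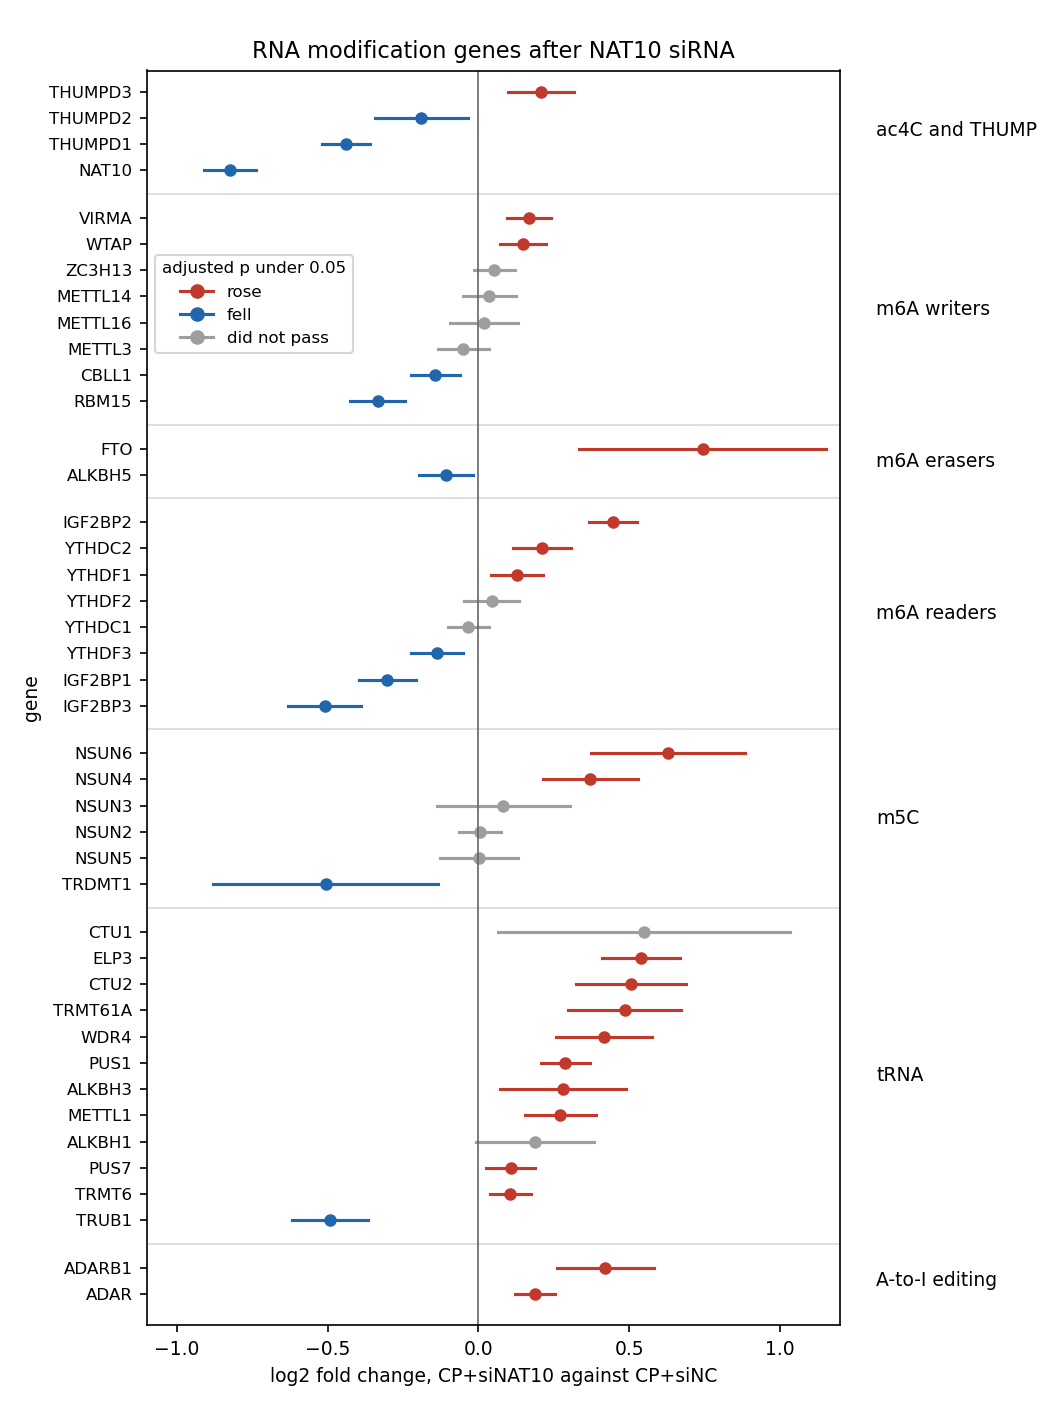
Log2 fold changes of the 42 genes, CP+siNAT10 against CP+siNC (x axis), with 95% confidence intervals as lines, grouped by the mark they act on (y axis); red genes rose, blue genes fell and grey genes did not pass an adjusted p of 0.05. NAT10 is lowest at -0.82, FTO is highest at 0.74, and of the 12 tRNA genes 9 rose and 1 fell.

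NAT10 (ENSG00000135372), on chromosome 11 from 34105617 to 34147670 in GRCh38, was the targeted gene. It was measured at 75.8, 71.4 and 73.2 CPM in the CP+siNC libraries and 41.3, 40.5 and 42.4 CPM in the CP+siNAT10 libraries. The groups were far apart, with the highest silenced library well under the lowest control library. The level fell to 56.4% of control (log2 fold change -0.82, SE 0.0426, adjusted p = 2.79e-15 by edgeR's quasi-likelihood test after Benjamini-Hochberg correction). In bulk RNA, fewer cells with the transcript and less transcript per cell cannot be told apart. Per gene length, NAT10 was 11th of the 42 in CP+siNC at 14.1 ± 0.430 RPKM (CPM divided by the gene length in kilobases) and 21st in CP+siNAT10 at 7.92 ± 0.184 RPKM. The promoter of NAT10, from 250 bases before to 50 after its start on the plus strand (chr11:34105379-34105678, RefSeq, GRCh38.p14), is shown because it holds an E-box, with the letters CACGTG in capitals beginning at position -15 from the start.
NAT10: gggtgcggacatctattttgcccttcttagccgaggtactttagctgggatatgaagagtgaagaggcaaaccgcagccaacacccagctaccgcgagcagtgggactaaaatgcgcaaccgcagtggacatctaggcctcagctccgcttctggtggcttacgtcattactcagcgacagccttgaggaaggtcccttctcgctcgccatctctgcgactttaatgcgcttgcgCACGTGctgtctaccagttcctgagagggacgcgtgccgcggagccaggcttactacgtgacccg

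THUMPD1, the tRNA-binding adaptor that works with NAT10 in tRNA acetylation, also fell. It was at 102, 101 and 98.4 CPM in CP+siNC and 70.6, 74.6 and 76.7 CPM in CP+siNAT10, 73.7% of control (log2 fold change -0.44, SE 0.0388, Benjamini-Hochberg adjusted p = 2.27e-10 in edgeR's test). No silenced library reached the control range, as for NAT10 itself. On the RPKM scale NAT10 made up 48.1%, 46.8% and 48.0% of the NAT10 and THUMPD1 total in CP+siNC and 42.1%, 40.3% and 40.8% in CP+siNAT10, a share that the siRNA against NAT10 itself lowers. The related methyltransferase genes THUMPD2 and THUMPD3 moved in opposite directions. THUMPD3, the catalytic subunit of a tRNA guanosine methyltransferase, was at 25.4, 25.3 and 25.9 CPM in CP+siNC and 31.0, 28.1 and 29.4 CPM in CP+siNAT10, without overlap (log2 fold change 0.21, SE 0.0536, Benjamini-Hochberg adjusted p = 0.00212 in edgeR's test). Its antisense neighbour THUMPD3-AS1 has as many counts as THUMPD3 and fell (log2 fold change -0.28). Reads from sequence that the pair shares cannot be told apart if strand was not used in counting. Other genes on the opposite strand, ENSG00000254485 at 12.2% of the count of THUMPD3 and SRGAP3 at 3.00%, rose (log2 fold changes 0.54 and 1.13). THUMPD2 values were 14.4, 13.2 and 12.8 CPM in CP+siNC and 11.7, 11.9 and 11.8 CPM in CP+siNAT10. The control libraries all lay higher, but THUMPD2 passed narrowly (log2 fold change -0.19, adjusted p = 0.0425, edgeR's quasi-likelihood test after Benjamini-Hochberg correction). It passed in 5 of 14 alternative settings, and its failures included DESeq2, library size scaling, no filter, and leaving out CP+siNC library 1 or 2 or any 1 of the CP+siNAT10 libraries, with an adjusted p from 0.033 to 0.194 over these settings by edgeR or DESeq2.

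The m6A writers moved both ways, and the catalytic pair did not pass. The mark is placed by METTL3 with its partner METTL14, held in a larger complex by WTAP, VIRMA, ZC3H13, CBLL1 and RBM15. Of 8 writers 2 rose, 2 fell and 4 did not pass, which is 25% each way, near the 29.1% and 29% of all genes averaging at least 5 CPM. RBM15, which recruits the complex to RNA, stood at 58.6, 54.9 and 58.7 CPM in CP+siNC and 47.2, 45.0 and 44.3 CPM in CP+siNAT10 (log2 fold change -0.33, SE 0.0447, Benjamini-Hochberg adjusted p = 4.25e-07 in edgeR's test). VIRMA, the large scaffold subunit, was at 139, 132 and 129 CPM in controls and 149, 152 and 149 CPM after NAT10 siRNA (log2 fold change 0.17, SE 0.0355, Benjamini-Hochberg adjusted p = 0.000258 in edgeR's test). All 3 silenced libraries were below the control range for RBM15 and above it for VIRMA. WTAP, which brings the catalytic pair to nuclear speckles, had 143, 139 and 148 CPM in CP+siNC and 166, 159.6 and 151 CPM in CP+siNAT10 (log2 fold change 0.15, 95% confidence interval 0.07 to 0.22), with its lowest silenced library close above the highest control. CBLL1, a RING finger subunit, had 76.8, 75.1 and 77.8 CPM in CP+siNC and 72.1, 67.3 and 68.6 CPM in CP+siNAT10 (log2 fold change -0.14, 95% confidence interval -0.22 to -0.06). WTAP overlaps SOD2 on the other strand, whose count is 90.9% of its own and which did not pass (log2 fold change 0.05).

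METTL3 was measured at 63.0, 59.4 and 59.9 CPM in CP+siNC and 58.8, 58.1 and 58.9 CPM in CP+siNAT10. The silenced libraries were all slightly lower, yet the difference did not pass (95% confidence interval of the log2 fold change -0.13 to 0.03). METTL14 had an interval of -0.05 to 0.12, METTL16, a separate methyltransferase of spliceosomal and messenger RNA, one of -0.09 to 0.13, and ZC3H13 one of -0.02 to 0.12. METTL3 made up 51.8%, 52.8% and 52.7% of the summed RPKM of METTL3 and METTL14 in CP+siNC and 50.4%, 51.2% and 51.2% in CP+siNAT10, a small fall in share without overlap (exact permutation test, two-sided, p = 0.1, the smallest that 3 libraries against 3 can give), with TOX4 overlapping METTL3. ZC3H13 passed without CP+siNC library 1 and with library size scaling, with adjusted p over all alternatives from 0.0191 to 0.601 by edgeR or DESeq2. The summed level of the 8 writers was 129, 122 and 124 RPKM in CP+siNC and 128, 126 and 125 RPKM in CP+siNAT10, with overlapping groups (exact permutation test, two-sided, p = 0.5).

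The m6A erasers moved in opposite directions. FTO, a demethylase of m6A and of cap-adjacent adenosine, had 1.22, 1.40 and 1.25 CPM in CP+siNC and 2.28, 2.42 and 1.85 CPM in CP+siNAT10. Every silenced library was above every control (log2 fold change 0.74, SE 0.200, Benjamini-Hochberg adjusted p = 0.00311 in edgeR's test). FTO had 225 counts over the 6 libraries and was the lowest of the 42 per gene length, at 0.0603 ± 0.00456 RPKM in CP+siNC and 0.102 ± 0.0139 RPKM in CP+siNAT10, and its interval was wide, 0.33 to 1.15. RPGRIP1L, which overlaps it on the other strand, had 4226 counts and also rose (log2 fold change 0.18). How reads shared by overlapping genes were assigned is not given in the sources used here, so the count of FTO may be too low, and its rank and change are uncertain. ALKBH5, the nuclear m6A demethylase, was at 47.4, 49.0 and 48.1 CPM in CP+siNC and 44.5, 45.2 and 44.4 CPM in CP+siNAT10. The silenced libraries were tightly grouped below the controls and the change was small (log2 fold change -0.11, adjusted p = 0.0444, edgeR's quasi-likelihood test after Benjamini-Hochberg correction). ALKBH5 passed in 4 of 14 alternative settings, and its failures included DESeq2, library size scaling, no filter and each setting with 1 of the 6 libraries left out, with an adjusted p from 0.0288 to 0.209 over these settings by edgeR or DESeq2.

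Of the 8 m6A readers 3 rose, 3 fell and 2 did not pass, or 37.5% each way beside 29.1% higher and 29% lower among all genes averaging at least 5 CPM. The IGF2BP proteins, which bind messenger RNA and slow its decay, showed the largest changes of the class and moved against each other. IGF2BP2 was at 83.8, 88.0 and 80.8 CPM in CP+siNC and 113, 113 and 118 CPM in CP+siNAT10 (log2 fold change 0.45, SE 0.0386, Benjamini-Hochberg adjusted p = 1.44e-10 in edgeR's test). IGF2BP3 was at 27.5, 30.5 and 26.7 CPM in CP+siNC and 19.7, 19.7 and 20.1 CPM in CP+siNAT10 (log2 fold change -0.51, SE 0.0591, Benjamini-Hochberg adjusted p = 3.65e-08 in edgeR's test). IGF2BP1 was at 61.4, 69.0 and 64.1 CPM in CP+siNC and 52.8, 50.5 and 54.5 CPM in CP+siNAT10 (log2 fold change -0.30, SE 0.0459, Benjamini-Hochberg adjusted p = 3.38e-06 in edgeR's test). The silenced libraries lay wholly above the controls for IGF2BP2 and wholly below them for IGF2BP1 and IGF2BP3. On the RPKM scale IGF2BP2 made up 62.1%, 60.6% and 60.8% of the family in CP+siNC and 73.2%, 73.7% and 73.4% in CP+siNAT10. IGF2BP1 went from a mean of 26.1% to 18.6% of the family, and IGF2BP3 from 12.8% to 7.92% (exact permutation test, two-sided, p = 0.1 for each share, the smallest possible).

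**Figure D2:**
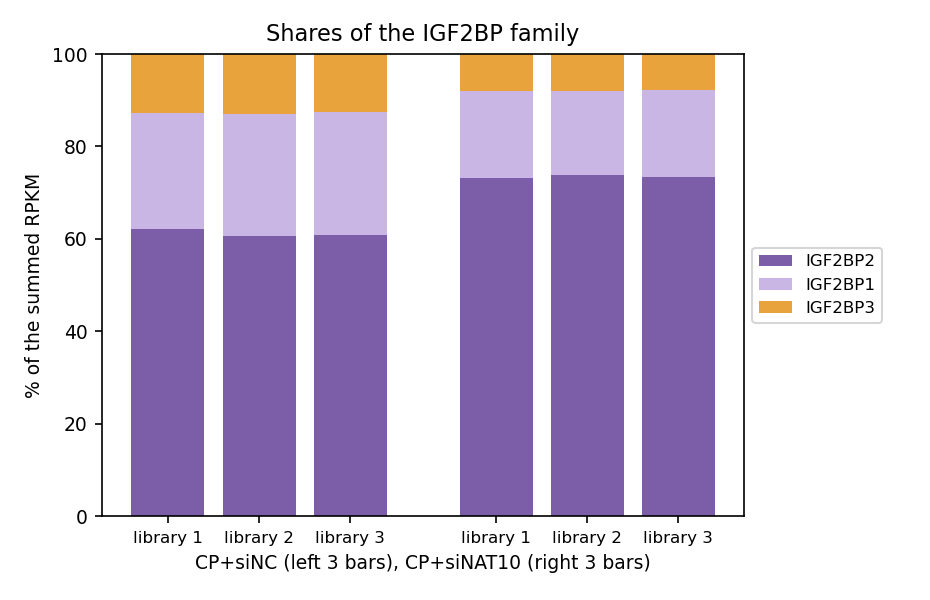
Shares of IGF2BP1, IGF2BP2 and IGF2BP3 in their summed RPKM (y axis, %) in each library (x axis), with CP+siNC at the left and CP+siNAT10 at the right. IGF2BP2 makes up 60.6% to 62.1% of the family in the control libraries and 73.2% to 73.7% after NAT10 siRNA.

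The YTH domain readers recognise the methyl group directly. YTHDC2, a helicase with such a domain, had 42.8, 41.3 and 39.6 CPM in CP+siNC and 46.2, 47.7 and 49.3 CPM in CP+siNAT10, with the groups apart (log2 fold change 0.21, SE 0.0464, Benjamini-Hochberg adjusted p = 0.000432 in edgeR's test). The cytoplasmic paralogs YTHDF1 and YTHDF3 went opposite ways, by a log2 fold change of 0.13 and -0.14. Neither held throughout. YTHDF1 failed in DESeq2 and without CP+siNC library 1 or 2 or CP+siNAT10 library 3, and YTHDF3 without CP+siNAT10 library 1 or 2 and with library size scaling, with adjusted p over all alternatives from 0.00229 to 0.092 for YTHDF1 and from 0.00134 to 0.0596 for YTHDF3 by edgeR or DESeq2. YTHDF2, the paralog best known for bringing RNA to decay, did not pass (95% confidence interval -0.05 to 0.14). On the RPKM scale YTHDF1 made up 40.4%, 40.0% and 40.8% of the YTHDF family in CP+siNC and 41.9%, 43.5% and 43.9% in CP+siNAT10. YTHDC1, the nuclear reader, did not pass either (-0.10 to 0.04), and it had the highest level of the 42 per gene length, 73.9 ± 2.91 RPKM in CP+siNC.

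**Figure D3:**
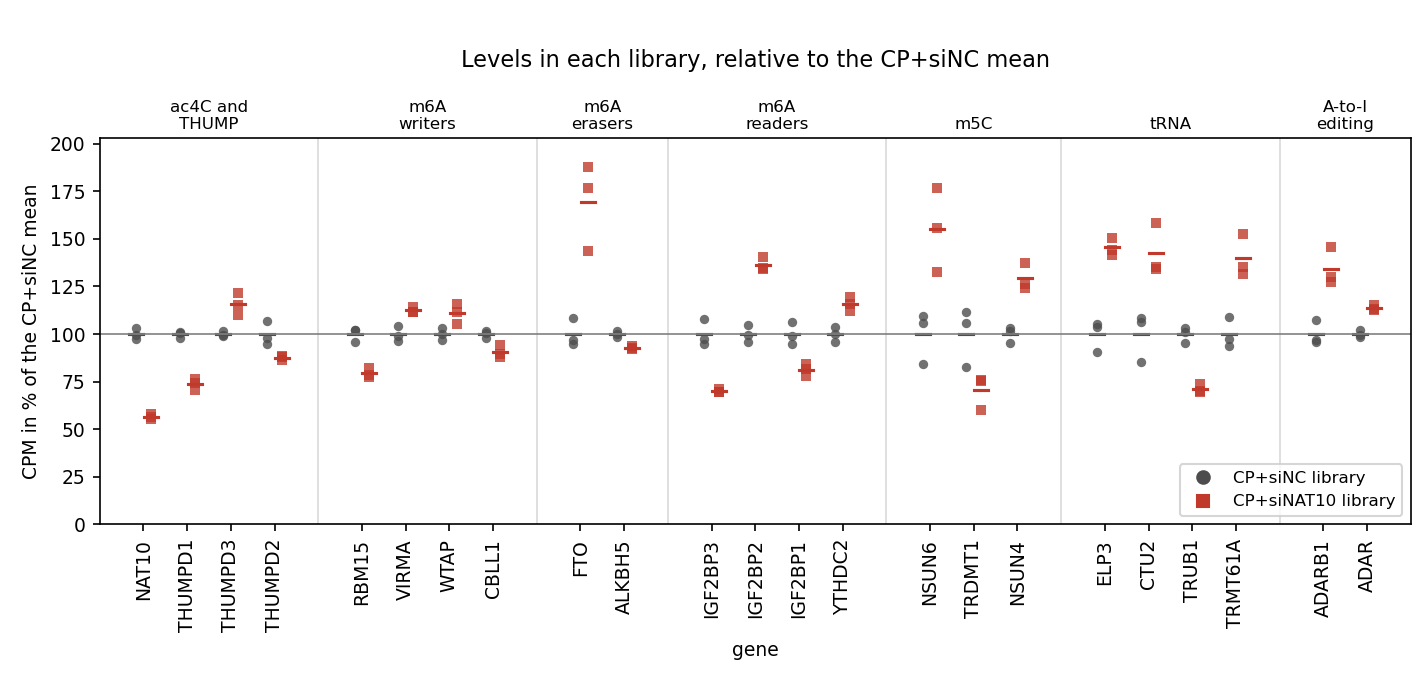
CPM of the named genes in each library, as % of the CP+siNC mean (y axis), by gene (x axis); circles are CP+siNC libraries, squares CP+siNAT10 libraries and short lines group means. The groups are apart for each gene shown, with the CP+siNAT10 mean at 56.4% of control for NAT10 and 169.5% for FTO.

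Among the 6 m5C genes 2 rose, 1 fell and 3 did not pass, or 33.3% higher and 16.7% lower beside the same 29.1% and 29%. NSUN6, which methylates tRNA and some messenger RNA, had 3.72, 4.67 and 4.83 CPM in CP+siNC and 5.84, 7.78 and 6.86 CPM in CP+siNAT10 (log2 fold change 0.63, SE 0.125, Benjamini-Hochberg adjusted p = 0.00013 in edgeR's test). NSUN4, a methyltransferase of mitochondrial ribosomal RNA, had 11.5, 10.6 and 11.4 CPM in CP+siNC and 13.9, 15.4 and 14.1 CPM in CP+siNAT10 (log2 fold change 0.37, SE 0.0762, Benjamini-Hochberg adjusted p = 0.000196 in edgeR's test). For both the silenced libraries were higher without overlap. TRDMT1, also called DNMT2, a tRNA methyltransferase, had 2.66, 2.80 and 2.08 CPM in CP+siNC and 1.90, 1.51 and 1.89 CPM in CP+siNAT10. Its libraries were lower after silencing at few counts (log2 fold change -0.51, SE 0.182, adjusted p = 0.0245, edgeR's quasi-likelihood test after Benjamini-Hochberg correction). TRDMT1 failed in DESeq2 and without CP+siNC library 1 or 2 or CP+siNAT10 library 2, with an adjusted p over all alternatives from 0.00943 to 0.116 by edgeR or DESeq2. NSUN2, the main tRNA and messenger RNA m5C writer and the most abundant of the class per gene length at 25.04 ± 0.174 RPKM, had a narrow interval around 0 (-0.06 to 0.08). The intervals of NSUN3 (-0.14 to 0.30) and NSUN5 (-0.13 to 0.13) also held 0, and since reads of NSUN5 could be split with its near-identical pseudogenes NSUN5P1 and NSUN5P2, with 2935 and 6319 counts in the NSUN5P1 entries and 3771 and 3163 in the NSUN5P2 entries against 2798 for NSUN5, its count is uncertain.

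The tRNA genes moved mostly upward, 9 of 12 higher and 1 lower, with a median log2 fold change of 0.28. Of all genes averaging at least 5 CPM 29.1% were higher and 29% lower. Over the alternatives 7 to 10 of the 12 were higher, with 7 in DESeq2 and without CP+siNAT10 library 1, and 10 with library size scaling. Over all genes tested, the number higher went from 4331 to 3253, 4028 and 5050 in these settings, in the same order. The summed level of the 12 tRNA genes was 108, 107 and 107 RPKM in CP+siNC and 123, 121 and 120.2 RPKM in CP+siNAT10. Every silenced library lay above the controls (exact permutation test, two-sided, p = 0.1). ELP3, the catalytic subunit of Elongator, which starts the modification of the wobble uridine, had 15.4, 17.9 and 17.7 CPM in CP+siNC and 24.5, 24.1 and 25.6 CPM in CP+siNAT10 (log2 fold change 0.54, SE 0.0635, Benjamini-Hochberg adjusted p = 4.82e-08 in edgeR's test). CTU2, part of the complex that adds sulfur to the same base, had 8.71, 11.1 and 10.9 CPM in CP+siNC and 13.7, 16.2 and 13.8 CPM in CP+siNAT10 (log2 fold change 0.51, SE 0.0891, Benjamini-Hochberg adjusted p = 2.93e-05 in edgeR's test). The silenced libraries of both were the higher ones without overlap. CTU2 overlaps PIEZO1 on the other strand, which has 16830 counts against 1602 for CTU2 and also rose (log2 fold change 0.25). CTU1, the partner of CTU2, had 0.903, 0.841 and 1.30 CPM and 1.47, 1.42 and 1.54 CPM in the same order, apart but at few counts, and did not pass (95% confidence interval 0.07 to 1.03, adjusted p = 0.0599, edgeR's quasi-likelihood test after Benjamini-Hochberg correction). It passed without CP+siNC library 3 and with library size scaling, and its adjusted p over all alternatives ran from 0.026 to 0.22 by edgeR or DESeq2.

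TRMT6 and TRMT61A, the subunits of the enzyme that methylates adenosine in the T loop of tRNA, rose together but unequally. TRMT61A, the catalytic subunit, had 7.38, 8.55 and 7.63 CPM in CP+siNC and 10.6, 10.3 and 12.0 CPM in CP+siNAT10 (log2 fold change 0.49, SE 0.0917, Benjamini-Hochberg adjusted p = 7.17e-05 in edgeR's test). TRMT6, the RNA-binding subunit, had 167, 159 and 162 CPM in CP+siNC and 176, 173 and 175 CPM in CP+siNAT10, a smaller change (log2 fold change 0.11, 95% confidence interval 0.04 to 0.17). Both were higher in each silenced library, and among 14 alternative settings TRMT6 failed only without CP+siNC library 2, with an adjusted p from 0.000578 to 0.0784 over these settings by edgeR or DESeq2. Per gene length TRMT6 stood at 43.0 ± 1.04 RPKM in CP+siNC against 2.44 ± 0.191 RPKM for TRMT61A. Their promoters are shown because the genes encode the subunits of 1 enzyme and both hold the E-box letters of the NAT10 promoter, again in capitals. The TRMT6 window lies on the minus strand at chr20:5950484-5950783, with the match beginning at position 4 from the start, and the TRMT61A window on the plus strand at chr14:103528946-103529245, with the match at position 32 (RefSeq, GRCh38.p14).
TRMT6: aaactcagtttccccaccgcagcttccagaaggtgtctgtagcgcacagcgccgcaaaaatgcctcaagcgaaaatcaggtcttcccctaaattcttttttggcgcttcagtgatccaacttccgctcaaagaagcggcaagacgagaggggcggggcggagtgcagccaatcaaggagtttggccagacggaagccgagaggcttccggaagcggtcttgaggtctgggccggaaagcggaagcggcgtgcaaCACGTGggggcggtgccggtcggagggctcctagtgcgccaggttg
TRMT61A: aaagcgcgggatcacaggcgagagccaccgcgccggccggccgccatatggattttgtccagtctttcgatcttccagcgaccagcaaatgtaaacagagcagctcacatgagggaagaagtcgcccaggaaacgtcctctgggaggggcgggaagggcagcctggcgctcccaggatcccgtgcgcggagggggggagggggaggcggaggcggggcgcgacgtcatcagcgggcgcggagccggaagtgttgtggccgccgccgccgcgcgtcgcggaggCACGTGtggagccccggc

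RefSeq promoter windows of this size were used for 34 of the 42 genes, 44 windows in all, and searched on both strands, with overlaps between motifs allowed. Windows on chromosome 8, where VIRMA, YTHDF3 and ELP3 lie, were left out for the members but not for all promoters. Windows of the same gene can overlap, as for ADAR and ADARB1, so a site can be counted more than once. CACGTG was found in 9 of the 44 windows and in 7.26% of all 35116 promoters in the table. The 8 genes with it are ADAR, IGF2BP3, NAT10, PUS7, RBM15, TRMT6, TRMT61A and YTHDF1. The ETS letters CCGGAAG were in 15 windows of the members and 10.3% of all promoters, the CCAAT box (CCAAT) in 21 and 34.6%, and the GC box (GGGCGG) in 26 and 45.0%. These matches describe letters in a window and no binding was measured.

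METTL1 and WDR4, which together methylate guanosine in the variable loop of tRNA, both rose, by log2 fold changes of 0.27 (95% confidence interval 0.15 to 0.39) and 0.42 (0.26 to 0.58). WDR4 had 11.3, 10.04 and 11.8 CPM in CP+siNC and 14.2, 14.7 and 15.1 CPM in CP+siNAT10, and METTL1 had 26.7, 28.3 and 29.02 CPM and 35.8, 35.2 and 30.8 CPM. The groups did not overlap for either subunit. Of the 3 pseudouridine synthases among the 42, PUS1 rose (log2 fold change 0.29, interval 0.21 to 0.37) and PUS7 rose slightly (0.11, interval 0.02 to 0.19), whereas TRUB1, which acts on the T loop, fell. TRUB1 was at 23.7, 22.4 and 24.2 CPM in CP+siNC and 16.3, 17.3 and 16.4 CPM in CP+siNAT10, wholly below the controls (log2 fold change -0.49, SE 0.0612, Benjamini-Hochberg adjusted p = 1.32e-07 in edgeR's test). Of the demethylases that act on tRNA, ALKBH3 rose (log2 fold change 0.28, interval 0.07 to 0.49) and ALKBH1 did not pass (interval -0.01 to 0.38). PUS7 failed in DESeq2 and without CP+siNC library 2 or 3 or any 1 CP+siNAT10 library, ALKBH3 failed in DESeq2 and without CP+siNC library 1 or 3 or CP+siNAT10 library 1, and ALKBH1 passed without CP+siNC library 2. Over all alternatives the adjusted p of edgeR or DESeq2 ran from 0.00422 to 0.125 for PUS7, from 0.0129 to 0.137 for ALKBH3 and from 0.0309 to 0.612 for ALKBH1.

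Both adenosine deaminases of A-to-I editing rose, a class of 2 that is too small for a share. Of all genes averaging at least 5 CPM 29.1% were higher and 29% lower. ADAR was at 257, 264 and 255 CPM in CP+siNC and 292, 293 and 299 CPM in CP+siNAT10 (log2 fold change 0.19, SE 0.0322, Benjamini-Hochberg adjusted p = 2.17e-05 in edgeR's test). ADARB1, which edits glutamate receptor RNA in the brain, was at 10.7, 11.9 and 10.5 CPM in CP+siNC and 14.1, 16.1 and 14.3 CPM in CP+siNAT10 (log2 fold change 0.42, SE 0.0791, Benjamini-Hochberg adjusted p = 6.67e-05 in edgeR's test). No control library reached the silenced range for either gene. ADAR made up 95.3%, 94.9% and 95.3% of the pair on the RPKM scale in CP+siNC and 94.6%, 93.9% and 94.6% in CP+siNAT10, so nearly all of the summed level came from ADAR in both groups. Editing of RNA itself was not analysed here.

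Per gene length the 42 genes spanned a wide range in CP+siNC, from YTHDC1 at 73.9 RPKM to FTO at 0.0603 RPKM. TRMT6 (43.0 ± 1.04 RPKM) and ZC3H13 (41.4 ± 1.68 RPKM) followed YTHDC1 and did not differ from each other beyond their spread in CP+siNC. In CP+siNAT10, where the SDs were smaller, they did, at 46.2 ± 0.461 RPKM for TRMT6 and 42.9 ± 0.310 RPKM for ZC3H13. The difference between these genes was not tested in either group. At the lower end in CP+siNC stood TRDMT1 at 0.163 ± 0.0248 RPKM and CTU1 at 0.477 ± 0.117 RPKM. YTHDC1, TRMT6, ZC3H13, NSUN2, WTAP and ADAR were the first 6 in this order in both groups. Further down the order changed, as PUS1 went from rank 18 to rank 10, METTL1 from 10 to 9 and IGF2BP3 from 29 to 35, besides the move of NAT10 from 11 to 21.

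Part of the 42 share their place in the genome with other genes. No other gene of the table overlaps 16 of them, and for 12 an overlapping gene had at least 10% of their own count. Besides the pairs already given, TOX4 on the other strand had 89.8% of the count of METTL3 and fell (log2 fold change -0.15), DHFR2 had 66.4% of the count of NSUN3 and rose (0.35), and EEF1AKMT3 and CYP27B1 had 25.4% and 23.8% of the count of METTL1 and did not pass. Smaller overlaps, from 10.5% to 27.5%, touched YTHDF2, NSUN6, NSUN2, ALKBH5 and ADARB1. CYP27B1 lies on the same strand as METTL1, and ENSG00000240291 on the same strand as NSUN6. ENSG00000240291 had 26.2% of the count of NSUN6 and did not pass (log2 fold change 0.46). A further gene on the other strand of CTU2, ENSG00000278341, had 19.2% of the count of CTU2 and rose (log2 fold change 0.55). The libraries were stranded, but whether counting used strand is not given in the sources used here. Reads from sequence shared by genes on opposite strands may therefore be counted for either. Counting by strand would not separate the pairs on the same strand.

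**Figure D4:**
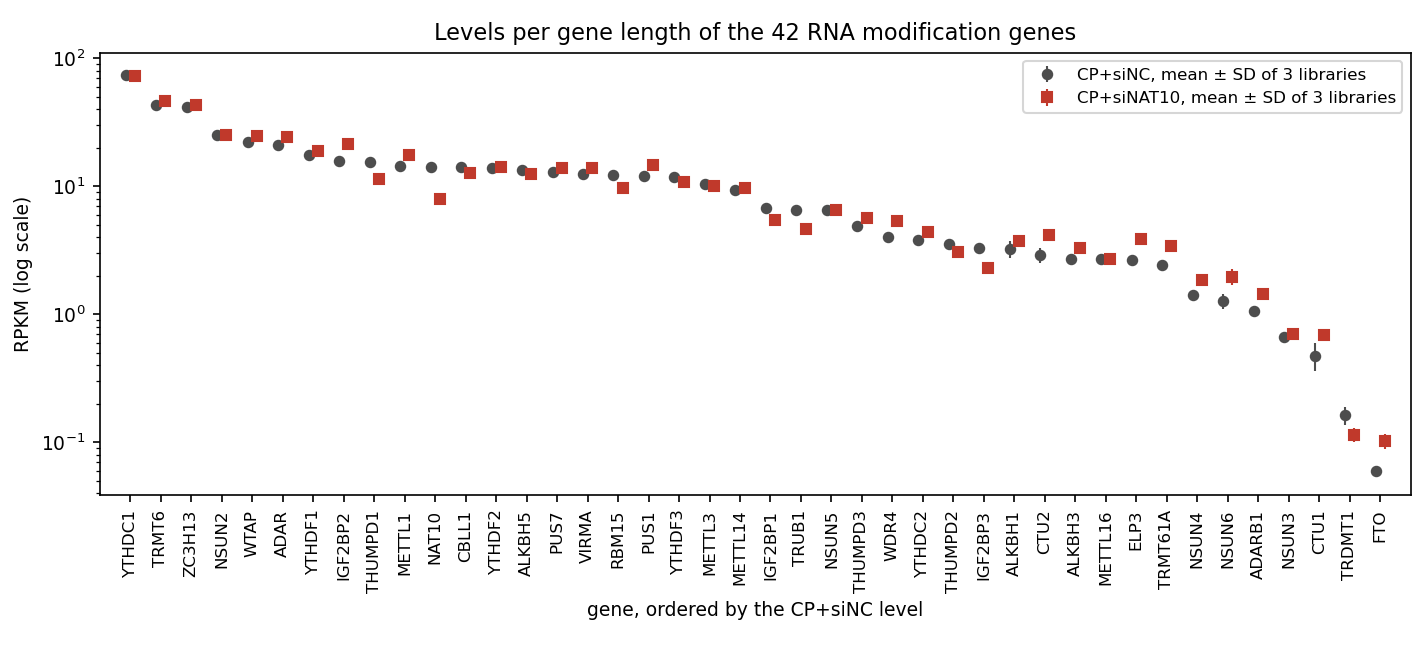
RPKM of the 42 genes on a log axis (y axis), ordered by the CP+siNC level (x axis); circles are CP+siNC and squares CP+siNAT10 means, with SD as error bars (n = 3). The order runs from YTHDC1 at 73.9 RPKM to FTO at 0.0603 RPKM in CP+siNC, and NAT10 drops from 14.1 to 7.92 RPKM.

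A further 112 genes of RNA modification were listed by function, and 103 of them had enough counts to be tested. By edgeR's quasi-likelihood test after Benjamini-Hochberg correction 32 were higher and 20 lower, which is 31.1% and 19.4% of those tested, beside 21.8% and 22.3% of all genes and 29.1% and 29% of genes averaging at least 5 CPM. Their median log2 fold change was 0.08. A change over 1.5-fold was called for 2 genes, RPUSD1 and RPUSD4, both upward, which is 1.94% of those tested. That limit was passed by 9.55% of all genes tested and 6.58% of those averaging at least 5 CPM. RPUSD4 was at 150.5% of control. Its log2 fold change ran from 0.523 to 0.643 over the alternatives, so it did not pass 1.5-fold in each.

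Of 13 other pseudouridine genes 8 were higher, or 61.5% beside 29.1% of all genes averaging at least 5 CPM, with PUS7L (log2 fold change -0.17, chosen after its value was seen) the 1 lower. RPUSD1, a predicted pseudouridine synthase, had 3.13, 3.18 and 3.01 CPM in CP+siNC and 5.08, 4.67 and 4.69 CPM in CP+siNAT10 (log2 fold change 0.63, SE 0.128, Benjamini-Hochberg adjusted p = 0.000191 in edgeR's test). RPUSD4, which acts on mitochondrial RNA, had 18.7, 17.7 and 19.1 CPM in CP+siNC and 27.2, 30.4 and 25.9 CPM in CP+siNAT10 (log2 fold change 0.59, SE 0.0636, Benjamini-Hochberg adjusted p = 1.02e-08 in edgeR's test). Neither gene had overlapping groups. PUSL1, a synthase-like protein, and GAR1, a core protein of the box H/ACA particles that guide pseudouridylation of ribosomal RNA, rose by log2 fold changes of 0.44 (interval 0.23 to 0.64) and 0.42 (interval 0.32 to 0.52).

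Of 25 other tRNA methylation genes 8 were higher and 2 lower, or 32% and 8% where genes averaging at least 5 CPM had 29.1% and 29%, the lower being TRMT5 (-0.19) and FTSJ1 (-0.21), chosen after their values were seen. TRMT9B had 1.81, 1.40 and 1.30 CPM in CP+siNC and 1.52, 2.65 and 2.25 CPM in CP+siNAT10, with overlapping groups, and passed narrowly (log2 fold change 0.52, adjusted p = 0.0484, edgeR's quasi-likelihood test after Benjamini-Hochberg correction). It passed in 6 of the alternative settings in which it was tested. Its failures included leaving out CP+siNC library 2 or 3 or CP+siNAT10 library 2 or 3, DESeq2 and upper quartile scaling, and over all alternatives its adjusted p ran from 0.00825 to 0.257 by edgeR or DESeq2. Of 13 other wobble uridine genes 4 were higher and 1 lower (30.8% and 7.69%). The higher ones included ELP2 (0.27), the methyltransferase ALKBH8 (0.38) and the sulfur donor NFS1 (0.24), and the lower one was the sulfur carrier URM1 (-0.22), all picked for naming once their values were known. Of 19 genes for other tRNA bases 6 were higher and 4 lower (31.6% and 21.1%). QTRT1, the catalytic subunit of the queuosine enzyme, rose by 0.39 (interval 0.28 to 0.50), and LAGE3 and TPRKB, subunits of the KEOPS complex that makes threonylcarbamoyladenosine, changed by -0.36 (interval -0.58 to -0.14, adjusted p = 0.0502 in DESeq2 and from 0.00499 to 0.0502 over all alternatives by edgeR or DESeq2) and -0.31 (interval -0.42 to -0.20). The remaining lower ones, ADAT2 (-0.26) and TRIT1 (-0.15), were picked once their values were known.

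Of 14 other m6A and cap genes 3 were higher and 6 lower, or 21.4% and 42.9% where genes averaging at least 5 CPM had 29.1% and 29%. METTL4, a methyltransferase of small nuclear RNA, had 14.6, 12.1 and 12.5 CPM in CP+siNC and 10.2, 8.78 and 10.02 CPM in CP+siNAT10 (log2 fold change -0.43, SE 0.0878, Benjamini-Hochberg adjusted p = 0.000198 in edgeR's test). HNRNPC, a nuclear RNA-binding protein whose sites open where m6A loosens RNA structure, had 597, 583 and 553 CPM in CP+siNC and 446, 473 and 461 CPM in CP+siNAT10 (log2 fold change -0.33, SE 0.0349, Benjamini-Hochberg adjusted p = 7.99e-09 in edgeR's test). The silenced libraries were lower throughout for both. RBM15B, the paralog of RBM15, was higher (0.30) where RBM15 was lower (-0.33), and TRMT112, the partner of THUMPD3 and other methyltransferases, was lower (-0.31). The further higher genes were the cap enzymes CMTR1 (0.18) and TGS1 (0.31), and these 4 were picked once their values were known. Of 15 ribosomal RNA methylation genes 3 were higher and 4 lower (20% and 26.7%), FBL (0.20), EMG1 (0.18) and NOP2 (0.09) against DIMT1 (-0.17), FTSJ3 (-0.14), MRM2 (-0.13) and NOP56 (-0.09), again named after their values were seen. Of 13 other deaminases 4 were tested and 2 fell, too few for a share. APOBEC3C, a cytidine deaminase of viral defence, had 17.6, 17.7 and 16.5 CPM in CP+siNC and 11.9, 12.2 and 12.5 CPM in CP+siNAT10, and APOBEC3B had 38.3, 39.5 and 37.5 CPM and 30.3, 31.8 and 30.5 CPM, both without overlap (log2 fold changes -0.50 and -0.32).

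**Figure D5:**
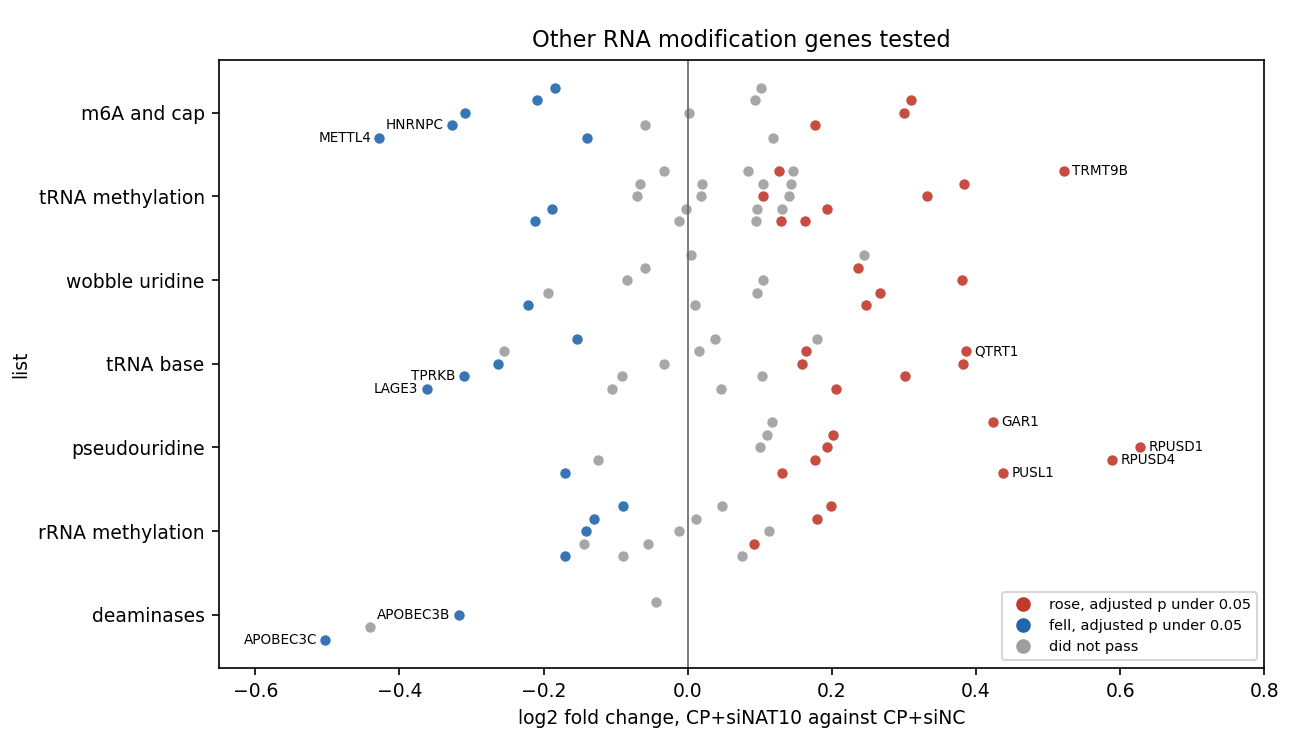
Log2 fold changes (x axis) of the 103 other RNA modification genes tested, by list (y axis; vertical offsets within a list only separate the points); red genes rose, blue genes fell and grey genes did not pass an adjusted p of 0.05. RPUSD1 is the highest at 0.63 and APOBEC3C the lowest at -0.50.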

How the data were processed

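RNA of Cisplatin-treated HK-2 cells was sequenced in 3 CP+siNC and 3 CP+siNAT10 libraries, from a stranded mRNA kit that adds molecular identifiers meant for the correction of duplicates. The submitters' processing notes name Trimmomatic 0.36, STAR 2.5.3a, featureCounts (Subread 1.5.1), edgeR 3.12.1 and GRCh38. The deposited values are raw counts per gene, with gene lengths and positions. Whether the count table was made after merging by identifier, and with strand, is not given in the sources used here, and unmerged copies would count as separate reads. All 42 genes matched GENCODE 29 by identifier and position.

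The count table was tested with edgeR 4.0.16 and limma 3.58.1, run under R 4.3.3. The filter filterByExpr (minimum count 10, minimum total 15) kept 19874 of 62754 genes, TMM factors scaled the library sizes, and the quasi-likelihood test compared CP+siNAT10 with CP+siNC without a term for the replicate number, with Benjamini-Hochberg adjustment over all genes tested. CPM and RPKM use the TMM-scaled library size, and RPKM the deposited gene length. The standard error is the absolute log2 fold change over the square root of F. The biological coefficient of variation was 3.00%, and pairs of libraries differed by a chi-square per gene of 1.74 to 2.55 within groups and 18.6 to 23.0 across them, where counting noise gives about 1. Counting sets the precision of genes with few reads, such as FTO and CTU1. Class sums and family shares were compared by exact permutation tests over libraries, which cannot go below p = 0.1 with 3 against 3. Tables and plots were made with pandas 2.3.3, numpy 2.4.6, matplotlib 3.10.9 and SciPy 1.17.1 under Python 3.11.15. The programs were tested on simulated data.

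The 42 genes, the 112 further genes and the alternatives were chosen with earlier results of these data known. Values per library are given for NAT10 and, in each class, for up to 4 genes with the largest change at an adjusted p under 0.05. Of the further genes, the 6 largest rises and 6 largest falls among those with an adjusted p under 0.05 and a mean of at least 1 CPM are named. Other values per library were added after they were seen. The alternatives were RLE, library size and upper quartile scaling, no filter, a filter of 10 counts in 3 libraries, a minimum count of 50, a replicate block, leaving out each library, and DESeq2 1.42.0. No sample was left out of the comparison itself.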

Additional observations from a re-analysis of the deposited data

How the results depend on the processing

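Over 14 alternative settings, 6 of them leaving out 1 library, 38 of the 42 genes kept their direction and 27 also their side of the threshold wherever they were tested, which for FTO, TRDMT1 and CTU1 leaves out the minimum count of 50. NAT10 ranged from -0.85 to -0.79 in log2 fold change. Of the 31 genes called, 25 stayed called in DESeq2, 29 with a minimum count of 50 (FTO and TRDMT1 were not tested) and 25 to 28 with 1 library left out, where 26 to 29 were called with genes newly called. Of the further genes 52 were called, and 39 in DESeq2 (23 higher, 16 lower) and 45 to 49 with 1 library left out. Calls also dropped over all genes tested, from 8771 to 6692 in DESeq2 and to between 7822 and 8168 with 1 library left out. Genes lower among the 42 numbered 7 to 10 and genes past 1.5-fold 2 to 5 when 1 library was left out. The m6A eraser class had 0 genes higher with a minimum count of 50 (FTO not tested), and 0 lower with library size scaling, no filter, the replicate block, DESeq2 and each library left out (0 to 0), as ALKBH5 failed. The m5C class had 0 lower with a minimum count of 50 and DESeq2, and 0 to 1 with a library left out (TRDMT1). The genes that turned direction did not pass before or after. NSUN5 stood at -0.000323 with RLE, -0.00258 with upper quartile scaling, -0.000653 with the filter of 10 counts, -0.00085 with a minimum count of 50, -0.000124 in DESeq2 and -0.0469 to 0.0606 with a library left out. YTHDC1 was at 0.00508 with library size scaling, and with a library left out METTL16 ran from -0.00304 to 0.0409 and NSUN2 from -0.0115 to 0.0254. The cause was not tested. Library size scaling put the median of all genes at 0.04. The replicate numbers gave no sign of pairing, which deviations from the mean of 3 libraries cannot settle. Deviations of equal numbers correlated by -0.04, 0.01 and -0.14, and those of unequal numbers by -0.11 to 0.15. The replicate block called 29 genes, without ALKBH5 and THUMPD2. It called 50 of the further genes in place of 52, with TRMT9B among those not called. Depth limits genes of few counts.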
